A study of Mus musculus with 4 samples.

Results

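Atoh1, Barhl1, Pax6, Zic1, Zic2 and Meis1, 6 transcription factors used to define the granule cell lineage of the cerebellum, were followed through single-cell transcriptomes of 4 mouse medulloblastomas. They were chosen by name, not by their values, and all 6 were among the 13149 genes listed for every tumour. All tumours were end-point medulloblastomas of the Sonic hedgehog (SHH) subgroup from Ptch1+/- mice irradiated at birth, untreated, and so formed 1 group with no control. The lost copy of Ptch1, the inhibitory receptor of the hedgehog pathway, is carried by the whole animal, and the labels give neither the animals' age nor whether each tumour came from a different mouse. Cells had been frozen viably, thawed, sorted as live and run on the 10x Genomics platform. Tumours 1 to 4 gave 798, 2589, 1229 and 1893 cells with 19446245, 23439893, 10458431 and 18242667 unique molecular identifiers (UMIs), each UMI marking 1 captured transcript. Any pair of tumours shared 0 to 7 cell barcodes. Between 5 and 10 UMIs of Ptch1 were counted in each tumour, too few for a check of the labelled genotype.

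Granule cells arise in the upper rhombic lip, where the basic helix-loop-helix factor Atoh1 specifies them and keeps their progenitors dividing in the external granule layer under Sonic hedgehog. The homeodomain factor Barhl1 acts downstream of Atoh1 in their migration and survival. The paired and homeodomain factor Pax6, the zinc finger factors Zic1 and Zic2, and the TALE homeodomain factor Meis1 are present in progenitors and remain in granule neurons, while Atoh1 is switched off as cells leave the cycle. SHH medulloblastoma arises from these progenitors.

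On GRCm38.p6, the assembly behind mm10, the RefSeq annotation places Atoh1 on chromosome 6 (64729125 to 64731245), Barhl1 on chromosome 2 (28907680 to 28917984), Pax6 on chromosome 2 (105668896 to 105698410), Zic1 on chromosome 9 (91358058 to 91365768), Zic2 on chromosome 14 (122475384 to 122480328) and Meis1 on chromosome 11 (18880428 to 19019651). All are protein-coding. Pax6 overlaps Pax6os1 and Elp4, Zic1 overlaps Zic4 at its 5′ end, and Meis1 overlaps the noncoding Gm16141. How reads in such overlaps, or reads shared between the related genes Zic1 and Zic2, were counted is not stated in the labels, and these levels are uncertain to that extent. RefSeq promoter windows of 300 bases, from 250 before to 50 after a transcript start, were at hand for 5 of the 6 factors. A window is shown for Atoh1, lower in neurons than in progenitors of the tumours, and for Barhl1, where no difference was called. Windows are also shown for Pax6 and Zic1, both higher in neurons. That of Meis1, also higher in neurons, is left out. Capitals mark CAGCTG, a palindromic E-box of the kind bound by helix-loop-helix factors such as Atoh1.
Atoh1, chr6:64728875-64729174, plus strand: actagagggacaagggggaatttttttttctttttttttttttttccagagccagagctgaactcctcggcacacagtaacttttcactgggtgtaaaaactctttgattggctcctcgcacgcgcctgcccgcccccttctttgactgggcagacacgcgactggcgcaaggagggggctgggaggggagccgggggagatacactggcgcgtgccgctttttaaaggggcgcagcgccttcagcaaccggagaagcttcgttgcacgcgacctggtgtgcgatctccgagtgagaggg
Barhl1, chr2:28916619-28916918, minus strand: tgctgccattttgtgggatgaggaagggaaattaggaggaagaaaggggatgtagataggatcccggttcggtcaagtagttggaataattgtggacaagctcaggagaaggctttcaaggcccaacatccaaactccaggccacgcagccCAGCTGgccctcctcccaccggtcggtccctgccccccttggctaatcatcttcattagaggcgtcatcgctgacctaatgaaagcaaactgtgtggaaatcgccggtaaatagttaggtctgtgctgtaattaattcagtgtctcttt
Pax6, chr2:105668646-105668945, plus strand: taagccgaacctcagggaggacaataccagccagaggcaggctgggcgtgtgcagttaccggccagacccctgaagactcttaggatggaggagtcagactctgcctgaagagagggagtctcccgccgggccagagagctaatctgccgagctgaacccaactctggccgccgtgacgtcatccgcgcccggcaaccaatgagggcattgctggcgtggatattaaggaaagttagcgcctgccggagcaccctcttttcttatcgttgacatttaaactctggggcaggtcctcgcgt
Zic1, chr9:91365719-91366018, minus strand: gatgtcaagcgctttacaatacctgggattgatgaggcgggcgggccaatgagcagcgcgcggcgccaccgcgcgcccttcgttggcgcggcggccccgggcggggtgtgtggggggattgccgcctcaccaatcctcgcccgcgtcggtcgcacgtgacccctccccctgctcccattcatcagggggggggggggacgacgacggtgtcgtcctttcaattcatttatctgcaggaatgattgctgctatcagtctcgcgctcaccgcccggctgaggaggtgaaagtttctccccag
The E-boxes CAGCTG and CAGATG (or its reverse complement CATCTG) were searched in all 7 windows of the 5 factors. CAGCTG was found once in each of the 2 Barhl1 windows and in none of the others, and CAGATG in none. Of 32851 mouse promoter windows, 16.3% hold CAGCTG and 17.2% hold CAGATG. The TALE factor motif TGACAG (or CTGTCA) lay once in the second Barhl1 window and once in the second Pax6 window, against 19.2% of all windows. The GLI motif GACCACCCA (or TGGGTGGTC), the site of the hedgehog pathway's own transcription factors, was in none of the 7 windows, against 0.253% of all. These matches describe letters in the windows only.

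Cells were grouped into classes by clustering on other genes, with all 6 factors and the related lists below kept out. The classes named from marker genes were neuron-like (702 cells), cycling-like (1219), granule progenitor-like (2064), astrocyte-like (64), oligodendrocyte lineage-like (110), and immune and skeletal muscle-like classes. Granule progenitor-like and cycling-like cells together are called progenitor-like. Clusters left without a name held 803 of the 6484 cells analysed, and each had at least 5 of 10 cycling markers raised. Levels are UMIs of a gene per 1000000 UMIs of the class (CPM), summed over its cells in 1 tumour, and classes with under 10 cells in a tumour were left out.

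All 6 factors had higher means in progenitor-like and in neuron-like than in myeloid-like cells, which should lack them. Atoh1 had 194, 254, 375 and 154 CPM in progenitor-like cells of tumours 1 to 4, against 14.1, 16.5, 90.4 and 6.56 CPM in myeloid-like cells. Zic1 had 282, 395, 508 and 291 CPM in progenitor-like cells, against 24.2, 40.1, 79.1 and 17.6 CPM in myeloid-like cells. Every tumour's progenitor-like value lay above every myeloid-like value for both genes. The highest myeloid-like values, those of tumour 3, rest on 12 cells. In neutrophil-like cells of tumour 2, 11 cells in all, Zic1 reached 504 CPM and Atoh1 206 CPM, against 24.6 and 7.99 CPM in the 375 neutrophil-like cells of tumour 4. The part of free RNA or of mixed droplets in those values was not tested. Skeletal muscle-like cells, found in tumour 1 alone (51 cells), had 128 CPM of Zic1 and 20.7 CPM of Atoh1.

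The order of the classes differed between factors. Among classes found in at least 3 tumours, the mean of Atoh1 decreased in the order granule progenitor-like (285 CPM), cycling-like (197 CPM), astrocyte-like (159 CPM), oligodendrocyte lineage-like (104 CPM), neuron-like (76.8 CPM) and myeloid-like (31.9 CPM), and each neighbouring pair overlapped between tumours. Barhl1 was likewise highest in granule progenitor-like cells (474 CPM), but neuron-like cells came next (399 CPM), ahead of cycling-like cells (293 CPM), again with overlap between neighbours. For Pax6, Zic1 and Zic2, neuron-like cells stood first and did not overlap with any other named class. Zic1 averaged 918 CPM there, and the next class, cycling-like, 388 CPM. Meis1 was also highest in neuron-like cells (269 CPM), where tumour 4 overlapped with the granule progenitor-like values (mean 178 CPM).

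**Figure D1:**
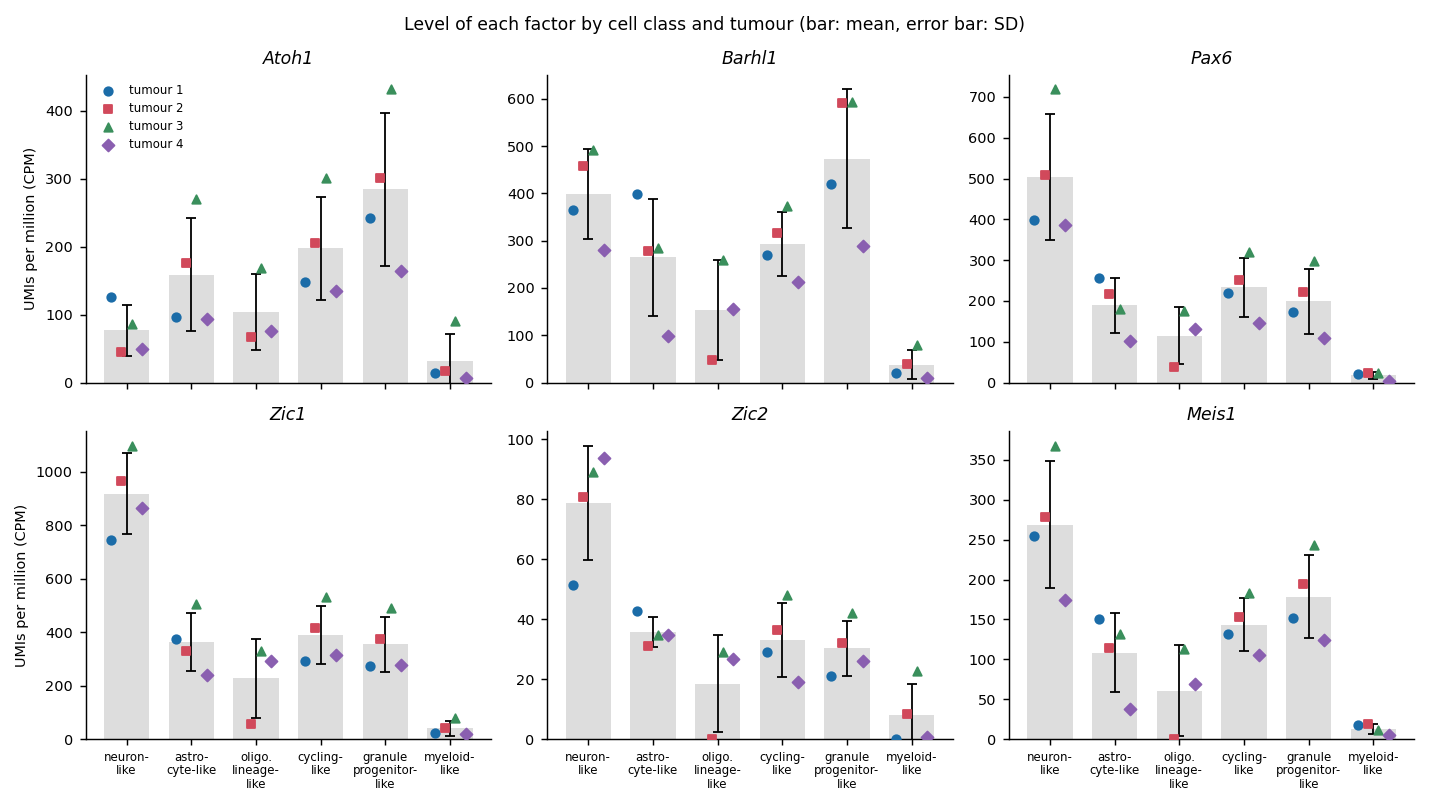
CPM of each factor (y axis, linear, from 0) in 6 cell classes (x axis), with 1 point per tumour, the mean as a bar and the SD as an error bar. Zic1, Pax6 and Zic2 stand highest in neuron-like cells, and Atoh1 in granule progenitor-like cells.

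Tumours also differed within a class. In progenitor-like cells, tumour 3 had the highest and tumour 4 the lowest level of Atoh1, Barhl1, Pax6, Zic2 and Meis1. Zic1 was lowest in tumour 1 there (282 CPM). Granule progenitor markers, summed over 8 genes such as Gli1 and Ccnd2, had the same extremes, with 4534 CPM in tumour 3 and 2194 CPM in tumour 4. Myeloid markers in the same cells were highest in tumour 4 (578 CPM, 11 of 12 detected) and lowest in tumour 3 (14.8 CPM, 10 of 12). The part of free RNA from immune cells in these differences between tumours was not tested. Summed ependymal and choroid plexus markers, 2 of 3 detected, stood at 2824 CPM in granule progenitor-like cells of tumour 4, but at 17.3 CPM in cycling-like, 23.8 CPM in neuron-like and 19.5 CPM in myeloid-like cells of the same tumour. Of these UMIs 99.2% were in 2 of the 207 granule progenitor-like cells. Without those 2 cells, left out after the data were seen, the sum was 23.6 CPM, and the class had 165 CPM of Atoh1 and 292 CPM of Barhl1, against 164 and 290 CPM with them.

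The first comparison set neuron-like cells against progenitor-like cells of the same tumours. Zic1, Pax6, Zic2 and Meis1 rose in neuron-like cells of all 4 tumours and Atoh1 fell in all 4, while Barhl1 did not pass the test. Zic1 had 744, 967, 1097 and 865 CPM in neuron-like cells of tumours 1 to 4, against 282, 395, 508 and 291 CPM in progenitor-like cells. The groups did not overlap, and the difference on the log2(CPM + 10) scale was 1.32 (SE 0.07; limma, adjusted p = 8.0e-10). Pax6, which acts in the migration and survival of granule cells, had 399, 508, 719 and 386 CPM in neuron-like cells, against 195, 236, 307 and 122 CPM in progenitor-like cells. Again no value overlapped, with a difference of 1.21 (SE 0.09; limma, adjusted p = 9.1e-09).

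Zic2, the closest relative of Zic1 among the 6, was scarcer. It had 51.3, 80.6, 89.1 and 93.6 CPM in neuron-like cells, against 25.03, 34.2, 44.6 and 23.5 CPM in progenitor-like cells, a difference of 1.08 (SE 0.13; limma, adjusted p = 2.4e-06). Meis1, a cofactor of homeodomain proteins, had 255, 278, 368 and 175 CPM in neuron-like cells, against 142, 173, 217 and 118 CPM in progenitor-like cells. Its groups overlapped, with tumour 4 lowest in both classes. Within each tumour the neuron-like value was the higher one, by 0.68 (SE 0.08; limma, adjusted p = 1.5e-06).

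Atoh1 went the other way. It had 126, 45.5, 86.5 and 49.2 CPM in neuron-like cells, against 194, 254, 375 and 154 CPM in progenitor-like cells, with no overlap. It fell by 1.57 on the log2 scale (SE 0.25; limma, adjusted p = 0.0017), least in tumour 1, which gave 42 neuron-like cells. The size depended on how cells were grouped: after the expected share of doublets was removed and cells were clustered again it fell by 0.46 (limma, adjusted p = 0.041), with the neuron-like mean at 157 CPM, and at clustering resolution 2 it fell by 0.89 (limma, adjusted p = 0.038). Even in neuron-like cells the level stood above that of myeloid-like cells of the same tumour in tumours 1, 2 and 4, at 126, 45.5 and 49.2 CPM against 14.1, 16.5 and 6.56 CPM. In tumour 3 it was 86.5 CPM, against 90.4 CPM in 12 myeloid-like cells. Neuron markers in neuron-like cells summed to 3905 CPM in tumour 1, against 7898, 6064 and 5668 CPM in tumours 2 to 4. Median UMIs of these cells were 14143 in tumour 1, against 5454, 4757.5 and 7740. The part of either in the smaller fall of Atoh1 in tumour 1 was not tested.

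Barhl1 had 365, 459, 492 and 281 CPM in neuron-like cells, against 344, 455, 497 and 263 CPM in progenitor-like cells. The values of each tumour lay close together, and the test gave a difference of 0.04 (SE 0.06; limma, adjusted p = 0.62). This depended on the grouping too: Barhl1 was called higher in neuron-like cells at clustering resolution 0.5, by 0.22 (limma, adjusted p = 0.011), and with the expected doublets removed, by 0.34 (limma, adjusted p = 0.00075), whereas the mean of the deposited log2 values gave -0.10 (limma, adjusted p = 0.23).

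In all, 5 of the 6 factors were called, where 44.7% of the 9095 genes tested were: 4 higher, beside 23.1% of genes, and 1 lower, beside 21.6%. Counted over all genes this was 2104 higher and 1961 lower, or 1145 higher and 2128 lower when the deposited log2 values were averaged. The genes tested left out the variable genes used for clustering and the marker genes, but kept the factors and related lists however variable. In every comparison the shares of all genes may therefore be lower than those of equally variable genes. The classes were drawn from other genes of the same cells, so a gene that varies along with the clustering genes is likely to differ, and the p-values speak only for agreement between tumours. Neuron-like cells were shallower than progenitor-like cells in tumours 2, 3 and 4, with median UMIs of 5454, 4757.5 and 7740 against 8606, 7381 and 11490. Summed cycling markers were also lower, at 179 to 373 CPM in neuron-like cells against 1390 to 2439 CPM in progenitor-like cells, and the part of either in the results was not tested. Granule progenitor markers, all 8 with a UMI, summed to 1606 to 2807 CPM in neuron-like cells, against 2194 to 4534 CPM in progenitor-like and 87.2 to 519.7 CPM in myeloid-like cells. GABAergic neuron markers were at 0 in all 4 tumours.

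**Figure D2:**
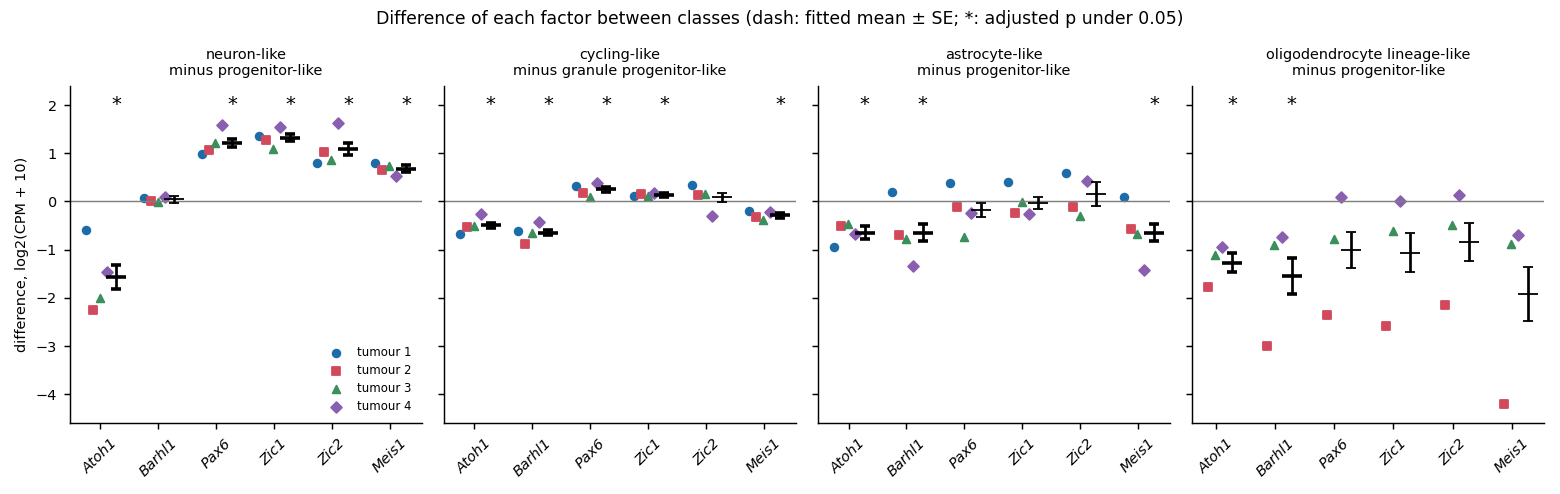
Difference in log2(CPM + 10) of each factor (y axis) in the 4 comparisons between classes, with 1 point per tumour, the fitted mean and SE in black, and a star at an adjusted p under 0.05. In the first panel Pax6, Zic1, Zic2 and Meis1 lie above 0 in all 4 tumours and Atoh1 below 0, and in the last panel tumour 2 lies lowest for every factor.

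The second comparison set cycling-like against granule progenitor-like cells of the same tumours. It does not part dividing from resting cells, since the largest granule progenitor-like cluster, 774 of 2064 cells, was led by replication genes. Atoh1, Barhl1 and Meis1 were lower in cycling-like cells of all 4 tumours, and Pax6 and Zic1 slightly higher. Barhl1 had 270, 317, 373 and 213 CPM in cycling-like cells, against 420, 591, 594 and 290 CPM in granule progenitor-like cells. It fell by 0.65 (SE 0.05; limma, adjusted p = 8.8e-09). Atoh1 had 147, 206, 302 and 135 CPM in cycling-like cells, against 242, 301, 432 and 164 CPM in granule progenitor-like cells, and fell by 0.49 (SE 0.06; limma, adjusted p = 8.3e-07). The groups of both genes overlapped between tumours, and the direction held within each tumour.

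Meis1 was lower in cycling-like cells by a smaller amount, -0.28 (SE 0.05; limma, adjusted p = 0.00034), at a mean of 143 CPM against 178 CPM. Pax6 was higher, by 0.25 (SE 0.05; limma, adjusted p = 0.0010), at 234 CPM in cycling-like cells and 200 CPM in granule progenitor-like cells. Zic1 was higher by 0.13 (SE 0.04; limma, adjusted p = 0.015), a call lost without tumour 2 (adjusted p = 0.065) or tumour 3 (adjusted p = 0.058). Zic2 differed by 0.08 (SE 0.09; limma, adjusted p = 0.55) and was called higher without tumour 4, by 0.21 (limma, adjusted p = 0.037). The Meis1 call was lost at resolution 2 (-0.17; limma, adjusted p = 0.088).

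In this comparison 5 factors were called, beside 28.3% of 9289 genes: 2 higher, beside 13.0%, and 3 lower, beside 15.3%. These calls rest on the pairing of classes within tumours. With tumour left out of the fit as a block, 173 genes passed in place of 2626 and none of the 6 factors did. The split over all genes was 1205 higher and 1421 lower, or 1426 higher and 472 lower when the deposited log2 values were averaged, with the same directions for the 6 factors. Cycling-like cells were deeper, with median UMIs of 10222 to 16617.5 against 6309.5 to 11987.5 in granule progenitor-like cells, and the part of depth was not tested.

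Granule progenitor-like cells were themselves uneven. Their 4 clusters had Barhl1 at 232 to 510 CPM over the tumours in the cluster led by the replication genes Mcm6 and Ung, and at 379 to 775 CPM in the cluster led by Ddit4 and Hey1. Meis1 spanned 103 to 222 CPM in the replication cluster and 142 to 291 CPM in the Ddit4 and Hey1 cluster. Atoh1 spanned 155 to 430 CPM in the replication cluster and 154 to 469 CPM in the cluster led by Mfap4 and Mxra8. The Mfap4 and Mxra8 cluster, 429 cells, had 7 of 8 granule progenitor but also 4 of 9 astrocyte markers raised. These ranges overlap, and no test was made between clusters.

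Astrocyte-like and oligodendrocyte lineage-like cells were few, and both had all 6 factors at means above those of myeloid-like cells. Atoh1 had 95.9, 176, 270 and 93.4 CPM in astrocyte-like cells, against 194, 254, 375 and 154 CPM in progenitor-like cells. It fell by 0.64 (SE 0.14; limma, adjusted p = 0.0042), lower in 4 of 4 tumours. Meis1 differed by -0.65 (SE 0.18; limma, adjusted p = 0.029) and Barhl1 by -0.65 (SE 0.17; limma, adjusted p = 0.038), each lower in 3 of 4 tumours. Both were higher in astrocyte-like cells of tumour 1, where Barhl1 had 398 CPM, against 344 CPM in progenitor-like cells. Pax6 (-0.18; limma, adjusted p = 0.57), Zic1 (-0.03; limma, adjusted p = 0.93) and Zic2 (0.15; limma, adjusted p = 0.80) did not pass.

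In astrocyte-like cells 3 factors were called, beside 4.77% of 10019 genes. All 3 were lower, beside 1.94% of genes, and none was higher, beside 2.83%. All 3 calls were lost at resolution 2, where the adjusted p of limma was 0.34 for Atoh1, 0.40 for Barhl1 and 0.28 for Meis1, and without tumour as a block (0.42, 0.44 and 0.43). The calls of Barhl1 and Meis1 were also lost without tumour 2 (limma, adjusted p = 0.097 and 0.11) or tumour 3 (0.22 and 0.13), and that of Meis1 without tumour 4 (0.24). With a pseudocount of 1 the adjusted p of limma was 0.20 for Barhl1 and 0.16 for Meis1, without the filter on low genes 0.14 and 0.16, and without doublet removal 0.054 for Atoh1 and 0.24 for Barhl1. Over all genes 284 were higher and 194 lower, against 260 and 472 with averaged log2 values. Astrocyte-like cells numbered 10 to 25 a tumour. Their granule progenitor markers, all 8 with a UMI, summed to 1223 to 2885 CPM, against 2194 to 4534 CPM in progenitor-like cells. Their astrocyte markers summed to 1677 CPM in tumour 1, where Barhl1 and Meis1 were higher, and to 4010, 5956 and 4442 CPM in tumours 2 to 4, against 253 to 623 CPM in progenitor-like cells. How far granule lineage RNA entered these cells' counts was not tested.

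In oligodendrocyte lineage-like cells, which could be compared in tumours 2, 3 and 4, Atoh1 had 67.3, 169 and 75.7 CPM, against 254, 375 and 154 CPM in progenitor-like cells. It fell by 1.27 (SE 0.20; limma, adjusted p = 0.0077). Barhl1 had 48.1, 260 and 155 CPM in oligodendrocyte lineage-like cells, against 455, 497 and 263 CPM in progenitor-like cells, and fell by 1.55 (SE 0.37; limma, adjusted p = 0.045). Tumour 2, with 16 such cells, lay lowest for all 6 factors: it had 0 UMIs of Meis1 and of Zic2 there. Its oligodendrocyte markers summed to 17111 CPM, against 1630 and 764 CPM in tumours 3 and 4, and its precursor markers to 4162 CPM, against 2371 and 1719 CPM. Meis1 differed by -1.92 and did not pass (limma, adjusted p = 0.079). It differed by -0.79 without tumour 2, by -2.44 without tumour 3 and by -2.54 without tumour 4. Pax6 (-1.01; limma, adjusted p = 0.14), Zic1 (-1.06; limma, adjusted p = 0.14) and Zic2 (-0.84; limma, adjusted p = 0.23) did not pass, and in tumour 4 all 3 were slightly higher in oligodendrocyte lineage-like cells. Fits that left out 1 tumour rest on 2 tumours and on variance borrowed across genes. They passed Meis1 each time, Pax6 and Zic1 without tumour 3 or 4, and Zic2 without tumour 4, but also called 626 to 1557 genes, against 576 with all 3 tumours.

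Here 2 of 6 factors were called, beside 5.77% of 9985 genes. Both were lower, beside 0.611% of genes, and none was higher, beside 5.16%. The count over all genes was 515 higher and 61 lower, or 779 higher and 1589 lower with averaged log2 values. The Barhl1 call was lost with every cell weighted equally (limma, adjusted p = 0.094), with a pseudocount of 1 (adjusted p = 0.13), without the filter on low genes (adjusted p = 0.076) and without doublet removal (adjusted p = 0.0505). No factor passed without tumour as a block, where limma gave Atoh1 an adjusted p of 0.098. Granule progenitor markers summed to 1307 to 2559 CPM in these cells and 2194 to 4534 CPM in progenitor-like cells of the same tumours. Their part in the levels was not tested.

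Per cell, the same contrast between neurons and progenitors was seen in shares of cells with at least 1 UMI. To set depths equal, cells were thinned to 4900 UMIs, which left out 243 of 702 neuron-like, 305 of 3283 progenitor-like and 94 of 683 myeloid-like cells. The loss was uneven, with 0 of 42, 158 of 441, 79 of 148 and 6 of 71 neuron-like cells left out in tumours 1 to 4. Thinned shares therefore describe the deeper cells of a class. An Atoh1 UMI was then found in 27.9% ± 10.2 of neuron-like cells (SD, n = 4 tumours), in 61.9% ± 11.9 of progenitor-like cells and in 5.19% ± 1.66 of myeloid-like cells (n = 3). By tumour the neuron-like shares were 40.5%, 20.8%, 31.9% and 18.5%, with exact binomial intervals, which cover counting error only, of 25.6 to 56.7%, 16.3 to 26.1%, 21.2 to 44.2% and 9.92 to 30.03%. The shares of tumours 1, 2 and 4 lay above their myeloid-like background of 3.90 to 7.06%, which free RNA can give. Tumour 3 had too few myeloid-like cells for a thinned value. Before thinning 25% of its 12 myeloid-like cells had an Atoh1 UMI, against 29.1% of its neuron-like cells, so its neuron-like share was not shown to exceed background. Before thinning, the share was 33.9% in neuron-like and 80.5% in progenitor-like cells. In neuron-like cells of tumours 2 and 3 it was 18.6% and 29.1%, below the thinned shares.

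Zic1 was found in nearly every neuron-like cell, 99.5% ± 1.06 after thinning, against 77.9% ± 10.7 of progenitor-like and 9.49% ± 4.00 of myeloid-like cells. Pax6 was found in 85.5% ± 6.17 of neuron-like and 57.9% ± 15.6 of progenitor-like cells, and Meis1 in 74.1% ± 13.7 and 53.7% ± 10.1 of them. Zic2 was found in 31.8% ± 6.69 of neuron-like and 14.1% ± 1.89 of progenitor-like cells, against 0.383% of myeloid-like cells. Barhl1 was found in 79.0% ± 10.4 of neuron-like and 75.7% ± 10.6 of progenitor-like cells. No test was made on shares.

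**Figure D3:**
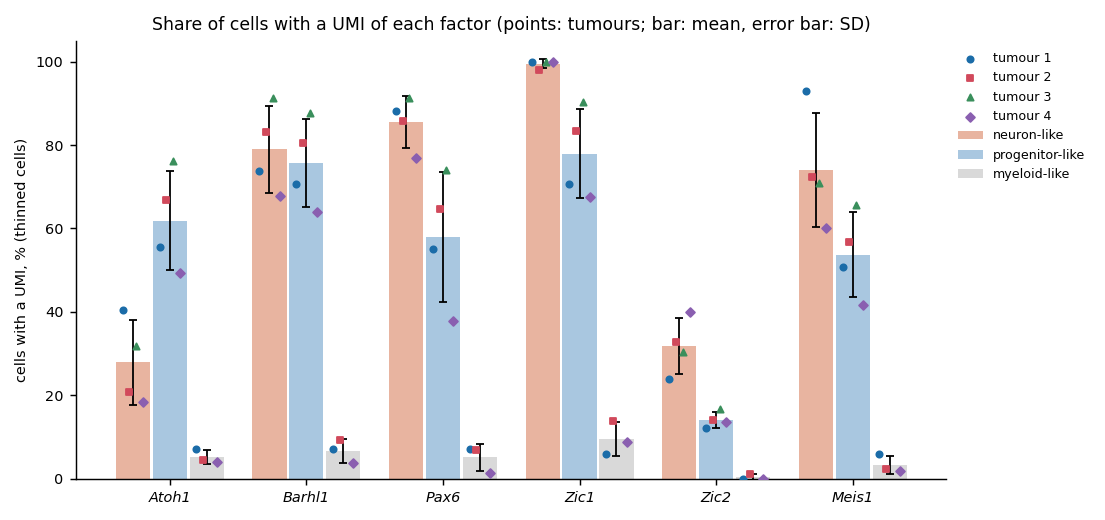
Percent of cells with at least 1 UMI of each factor (y axis, from 0) after thinning to 4900 UMIs, in neuron-like, progenitor-like and myeloid-like cells, with 1 point per tumour, the mean as a bar and the SD as an error bar. Atoh1 is the factor whose neuron-like share (27.9%) lies below its progenitor-like share (61.9%).

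The factors were found together in single cells. A thinned neuron-like cell held UMIs of 3.63 to 4.19 of the 6 on average over the 4 tumours, a progenitor-like cell of 2.73 to 4.11 and a myeloid-like cell of 0.198 to 0.379. All 6 were found at once in 3.08 to 11.9% of neuron-like cells and in 0.794 to 5.36% of progenitor-like cells. Among progenitor-like cells, Barhl1 was found more often where Atoh1 was found in each tumour. It was in 73.3, 84.9, 90.1 and 65.3% of cells with Atoh1, against 67.2, 71.8, 80.1 and 62.5% of cells without. These cells pool granule progenitor-like and cycling-like cells, in which Atoh1 was found in 68.1% and 51.9% and Barhl1 in 80.6% and 67.9%. The part of this pooling in the co-detection was not tested. Zic1 was found in 69.0, 82.8, 90.7 and 67.7% of progenitor-like cells with Atoh1, against 72.6, 84.7, 88.5 and 67.2% of those without. Its direction differed between tumours. Among neuron-like cells with an Atoh1 UMI, 17, 59, 22 and 12 cells, Zic1 was found in 98.3 to 100%, and in 97.8 to 100% of those without. Co-detection at such depths is a description and carries no test.

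A grouping by marker share gave the course of each factor. Neural cells were taken without the astrocyte-like and oligodendrocyte lineage-like clusters and without an unnamed cluster of 28 cells led by Igkc and Cd79a. The 4760 cells left were put, in each tumour, into 5 bins of equal number by the share of their UMIs that came from 10 neuron markers. Atoh1 averaged 240, 233, 241, 200 and 116 CPM in bins 1 to 5, with means close together over the first 3 bins and lower in the last. Tumours differed in this course. From bin 1 to bin 5 Atoh1 went from 267 to 60.7 CPM in tumour 2 and from 363 to 170 CPM in tumour 3. In tumour 1 it went from 215 to 132 CPM. Tumour 4 had 113 CPM in bin 1, 157 CPM in bin 3 and 102 CPM in bin 5. Pax6 averaged 180, 200, 215, 265 and 430 CPM, and Zic1 292, 333, 370, 462 and 778 CPM. Most of their increase lay between bins 4 and 5. Zic2 followed with 21.6, 27.5, 29.8, 43.1 and 71.0 CPM, and Meis1 with 141, 148, 150, 171 and 233 CPM. Barhl1 alone among the 6 had its highest mean in bin 4, at 438 CPM, with 317, 371, 392 and 398 CPM in bins 1, 2, 3 and 5. SDs over tumours were wide (46.1 CPM for Atoh1 in bin 5, 145 CPM for Barhl1 in bin 4), and tumours 1, 2 and 3 had their Barhl1 peak in bin 4 while tumour 4 was highest in bin 5. Summed cycling markers averaged 2233, 2092, 1907, 1548 and 868 CPM over the same bins.

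**Figure D4:**
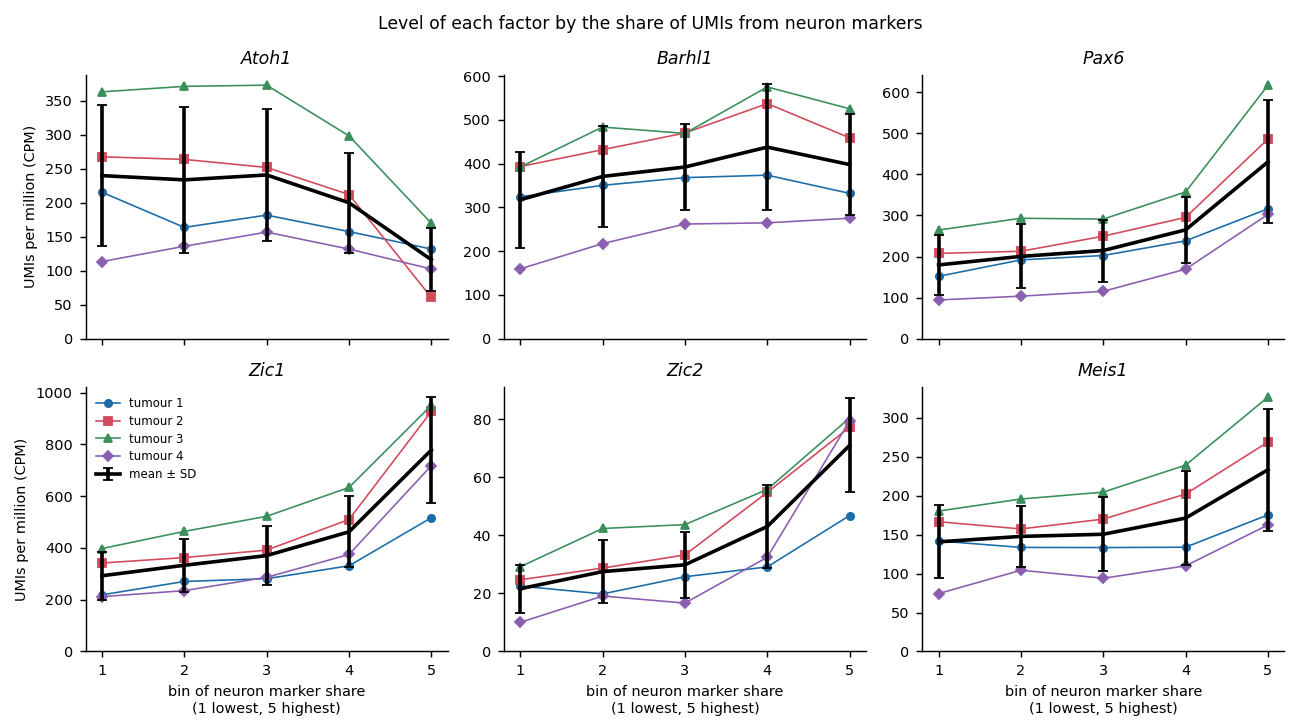
CPM of each factor (y axis, from 0) in 5 bins of cells ordered by their share of UMIs from neuron markers (x axis, bin 1 lowest), with a coloured line per tumour and the mean and SD in black. Zic1 averages 292 CPM in bin 1 and 778 CPM in bin 5, and Atoh1 240 CPM and 116 CPM.

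The pattern of each factor was then set against all others over 30 sums of 1 class in 1 tumour, among 12276 genes. These points share libraries, and they hold both neural and immune classes. The genes most like Atoh1 were Hey1 (r = 0.96), Hsd11b2 and Srebf1 (both r = 0.95). Pax6 was most like Nfib (r = 0.98), a nuclear factor I gene of granule cell maturation, then Lhx1 and Cog7 (both r = 0.98), and Zic1 was most like Nfib, Pax6 and Cog7 (each r = 0.98). Zic2 came closest to Nhlh2 (r = 0.92), then Zic1 and Gm17750 (both r = 0.92). Barhl1 came closest to Gm2694, Sstr2 and Apba2 (each r = 0.97), and Meis1 to Fgf9 (r = 0.96), Ebf3 (r = 0.96) and Barhl2 (r = 0.95), the paralog of Barhl1.

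Within the 19 points of the 5 neural classes the factors parted. Atoh1 had r = -0.01 with Pax6, -0.04 with Zic1, -0.14 with Zic2, 0.26 with Meis1 and 0.44 with Barhl1. Pax6 and Zic1 had r = 0.95 with each other, Zic1 and Zic2 r = 0.96, and Barhl1 and Meis1 r = 0.94. Atoh1 was there most like Srebf1 (r = 0.97), a regulator of lipid synthesis genes, then Sfrp2 (r = 0.93) and Mcm4 (r = 0.91), a subunit of the replicative helicase.

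Genes around the factors were read from lists chosen by known role. Shares and medians of all genes are again over the genes tested, without the clustering and marker genes, and may be low for comparison. Of 12 tested paralogs and DNA-binding partners, 7 were higher in neuron-like than in progenitor-like cells and 1 lower, beside 23.1% and 21.6% of all genes, with a median difference of 0.48, against 0.02 over all genes. Meis3, a paralog of Meis1, differed by 0.88 (limma, adjusted p = 6.7e-06; 56.3 CPM in neuron-like and 25.6 CPM in progenitor-like cells). Tcf4, an E protein that pairs with helix-loop-helix factors, differed by 0.75 (limma, adjusted p = 9.5e-08) and Zic4, the neighbour of Zic1, by 0.41 (limma, adjusted p = 0.00066). Tcf3, another E protein, fell by 0.36 (limma, adjusted p = 0.0027).

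Of 9 tested genes described as targets of Atoh1, 2 were higher and 4 lower in neuron-like cells, beside 23.1% and 21.6% of all genes, with a median of -0.25. Cxcr4, the receptor of a meningeal chemokine that holds progenitors in place, fell by 1.43 (limma, adjusted p = 4.9e-06; 15.4 CPM in neuron-like and 48.9 CPM in progenitor-like cells), and Hes6 fell by 1.23 (limma, adjusted p = 5.5e-07). Nhlh1, a helix-loop-helix factor of young neurons, rose by 2.23 (limma, adjusted p = 2.5e-11; 306 CPM in neuron-like and 57.4 CPM in progenitor-like cells) and Insm1 by 0.43 (limma, adjusted p = 0.00049). In cycling-like against granule progenitor-like cells, 6 of 9 were lower and 1 higher, beside 15.3% and 13.0% of all genes, with a median of -0.25. As for the factors, these counts come from the fit with tumour as a block, without which 173 genes passed in all. Dll3, a Notch ligand, was lower there by -0.67 (limma, adjusted p = 2.2e-06) and Insm1 higher by 0.61 (limma, adjusted p = 5.6e-07).

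Granule neuron maturation factors had the highest median of the 5 lists: 16 of 18 were higher in neuron-like cells and 1 lower, beside 23.1% and 21.6% of all genes, with a median of 1.24. Neurod1, needed for granule neuron differentiation, differed by 3.27 (limma, adjusted p = 1.5e-12; 1922 CPM in neuron-like and 205 CPM in progenitor-like cells) and Nhlh2 by 2.07 (limma, adjusted p = 3.6e-10), while Etv1 fell by 0.94 (limma, adjusted p = 0.00019). Of 4 tested factors of other rhombic lip and cerebellar lineages, 3 were higher and none lower, beside the same 23.1% and 21.6%. Eomes, a marker of unipolar brush cells, rose by 1.06 (limma, adjusted p = 2.6e-05; 12.5 CPM in neuron-like and 0.297 CPM in progenitor-like cells). Lhx1 rose by 1.04 (limma, adjusted p = 1.1e-07) and Olig3, of the early rhombic lip, by 0.97 (limma, adjusted p = 1.2e-07). Of 7 tested genes of BMP signalling, which promotes the loss of Atoh1, 2 were higher and 2 lower, near the shares of all genes (23.1% and 21.6%), with Smad1 at 0.64 (limma, adjusted p = 0.00018) and Id1 at -0.55 (limma, adjusted p = 0.0027). In cycling-like against granule progenitor-like cells, where 13.0% of all genes were higher and 15.3% lower, 2 partners were higher and 2 lower of 12, 1 maturation factor higher and 3 lower of 18, 1 BMP gene higher and 1 lower of 8, and none of the 4 other lineage factors passed.

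In astrocyte-like cells, beside 2.83% of all genes higher and 1.94% lower, 1 of 13 partners and 2 of 9 Atoh1 targets were lower, 1 of 10 BMP genes was higher, and none of 18 maturation factors or 3 other lineage factors passed. Id3, a BMP-responsive inhibitor of helix-loop-helix factors, rose by 3.95 (limma, adjusted p = 2.8e-14; 224 CPM in astrocyte-like and 4.13 CPM in progenitor-like cells), and of the Atoh1 target list Hes6 fell by 0.62 (limma, adjusted p = 0.029) and Ntrk3 by 0.87 (limma, adjusted p = 0.024). In oligodendrocyte lineage-like cells, beside 5.16% higher and 0.611% lower, 1 of 13 partners was lower, 2 of 18 maturation factors and 1 of 9 BMP genes were higher, 1 of 5 other lineage factors was higher and 1 lower, and none of 10 Atoh1 targets passed. Zic4 fell by 1.16 (limma, adjusted p = 0.012) and Olig3 by 1.19 (limma, adjusted p = 0.032).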

How the data were processed

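Single-cell transcriptomes of 4 tumours were used. Per the files, the authors deposited log2 values: each is the log2 of 1 plus a UMI count divided by the cell's size factor, a form read from the values. The authors named Cell Ranger, Seurat and the build mm10, per the submitters' processing notes, and versions and the tool behind the size factors are not given in the sources used here. Whole UMI counts were worked out from the log2 values, and 100% of values came out whole within 4.0e-14.

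A filter of 500 genes and 10% mitochondrial UMIs removed 0 of 6509 cells. Scrublet called 25 doublets (0.384%), against 100 expected, so many may remain among the 6484 cells analysed. Clusters came from scanpy 1.11.5 and leidenalg 0.10.2 with 1000 variable genes scaled within tumour, 30 principal components, 15 neighbours and resolution 1. Neural cells were clustered a second time, apart from immune and muscle cells. A cluster could be named when at least 3 and at least 50% of a class's markers were raised, a rule set after the clusters were seen. Cycling-like clusters also needed raised granule progenitor markers, and neuron-like ones a larger share of neuron than of granule progenitor markers. Glial clusters needed more than 1 of their markers among the leading genes. A name was withdrawn where another class had more markers among the leading genes, as in the unnamed cluster of 417 cells. The ending "-like" marks that a class rests on its transcripts.

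Sums of UMIs per tumour and class, as log2(CPM + 10), were compared with limma 3.58.1 (statmod 1.5.0, R 4.3.3), with tumour as a block because both classes of a pair come from the same tumour, variance trend and robust moderation. Adjusted p-values are Benjamini-Hochberg values over all genes tested, with a threshold of 0.05. Tested were genes detected in 5% or more of the cells of a class, without the clustering and marker genes, in tumours with at least 10 cells of each class. Shares and medians given for all genes are over these genes. The factors and lists could not be clustering genes, so variable ones among them stayed in. The moderation borrows variance across genes, so very small p-values rest largely on shared variance. Tumours are numbered by the labels' replicate numbers, and if they did not come from separate animals the p-values measure only the spread between samples. On simulated data with 200 changed genes, 82%, 98%, 39% and 37% of 2-fold changes were recovered in the 4 comparisons, in the order reported. Of 4-fold changes 100%, 100%, 87% and 92% were recovered, and 10, 4, 6 and 9 calls were false. The simulated counts had 1 fixed spread for all genes, not the spread between these tumours. The shares may therefore overstate recovery where a difference varies between tumours.

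Named genes are the 6 factors, for each of them the 3 genes of highest Pearson correlation, and from each list up to 2 genes of the highest and 2 of the lowest difference among those that passed. The factors, lists and comparisons were chosen with earlier results of these data known, so nothing here is independent of them.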

Additional observations from a re-analysis of the deposited data

Results flagged for a closer look

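Each factor's 4 tumour values were searched for a tumour far from the other 3, both for levels in a class and for differences between classes. Of 60 such sets 2 stood out, where chance alone flags about 1 in 20. Atoh1 in myeloid-like cells had 90.4 CPM in tumour 3, against 6.56 to 16.5 CPM in the other tumours, and rests on 12 cells. Pax6 in myeloid-like cells had 4.87 CPM in tumour 4, against 21.2 to 23.6 CPM in the other tumours.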

How the results depend on the processing

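In neuron-like against progenitor-like cells, 5 of 6 factors were called under 12 of the 14 settings, counting the one reported, and 6 at resolution 0.5 and with the expected doublets removed. Atoh1, Pax6, Zic1, Zic2 and Meis1 kept direction and call throughout. Leaving out 1 tumour gave 5 calls each time and 3029 to 3939 genes in place of 4065. Barhl1 changed sign with averaged log2 values (-0.10) and equal weight per cell (-0.061). The level of Atoh1 in neuron-like cells, 76.8 CPM as reported, was 121 CPM at resolution 0.5, 117 CPM at resolution 2 and 157 CPM with expected doublets removed. That of Zic1, 918 CPM, was 761 CPM at resolution 0.5 and 688 CPM with expected doublets removed. The make-up of the class changed too. The reported neuron-like cluster, 702 cells, had 2 of 8 granule progenitor markers raised. With expected doublets removed, a cluster of 479 cells with 7 raised was also named neuron-like, and at resolution 2 one of 196 cells with 7 raised. The part of this in the levels was not tested.

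Without the tumour (replicate) block, genes called numbered 2036 in the neuron-like comparison, 173 in the cycling-like, 91 in the astrocyte-like and 425 in the oligodendrocyte lineage-like comparison, and the factors called numbered 5, 0, 0 and 0. In the cycling-like comparison resolution 2 gave 1710 genes in place of 2626, and leaving out 1 tumour gave 1750 (without tumour 2) to 2922 genes and 4 to 6 factors. Zic2 there ranged over -0.0021 to 0.21 when 1 tumour was left out.

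In the astrocyte-like comparison, 478 genes and 3 factors as reported, averaged log2 values gave 732 genes, equal weight per cell 790, a pseudocount of 1 gave 183 and no filter on low genes 131. Factors called numbered 1 with a pseudocount of 1, with no filter and with no doublet removal, 0 at resolution 2, and 1 to 3 when 1 tumour was left out (241 genes without tumour 3 and 258 without tumour 2, to 435). The difference of Zic1 changed sign, uncalled, with equal weight per cell (0.060) and with no doublet removal (0.061). When 1 tumour was left out Zic1 ranged over -0.17 to 0.047 and Pax6 over -0.37 to 0.0075, neither called. Resolution 0.5 left no named astrocyte-like or oligodendrocyte lineage-like cluster to compare. With the expected doublets removed, an astrocyte-like cluster of 56 cells was named. Fewer than 3 tumours had at least 10 of its cells, so that comparison was not made.

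In the oligodendrocyte lineage-like comparison, 576 genes and 2 factors as reported, averaged log2 values gave 2368 genes and 6 factors, equal weight per cell 1511 genes and 1 factor, a pseudocount of 1 gave 311 genes and 1 factor, and no filter and no doublet removal 1 factor each. Leaving out 1 tumour, which leaves 2, gave 626 to 1557 genes (1557 without tumour 2, 1100 without tumour 4) and 3 to 6 factors. The cause of these changes was not tested.

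Thinning lowered the shares of progenitor-like cells with a UMI to 61.9% for Atoh1, 75.7% for Barhl1, 57.9% for Pax6, 77.9% for Zic1, 14.1% for Zic2 and 53.7% for Meis1, and those of neuron-like cells to 79.0% for Barhl1, 85.5% for Pax6 and 31.8% for Zic2. The bins of neuron marker share were chosen after seeing the data. Few glial cells limit the last 2 comparisons, and doublets that went uncalled may remain in every class.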

Other observations

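The unnamed clusters also carried the factors. A cluster of 417 cells, with a median of 17137 UMIs and both neuronal and cycling markers raised, had Zic1 at 355, 635, 760 and 537 CPM in tumours 1 to 4, Pax6 at 249, 339, 426 and 219 CPM and Atoh1 at 138, 177, 232 and 130 CPM. In each of the 4 tumours its Zic1, Pax6 and Atoh1 lay between the progenitor-like and the neuron-like values of the same tumour. The part of mixed droplets in these values was not tested. Another unnamed cluster, led by replication and division genes and with 2 of 8 granule progenitor markers raised, had Zic2 at 33.0, 4.45, 9.16 and 4.25 CPM and Zic1 at 182, 194, 253 and 192 CPM, below the progenitor-like Zic1 of every tumour. Neither cluster was tested.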
